A study of Mus musculus with 28 samples.

Results

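B1 and B2 are the most numerous short interspersed nuclear elements (SINEs) of the mouse genome, and their RNA was followed here in mouse embryonic stem cells (mESCs) depleted of the corepressor KAP1. The members were taken from the RepeatMasker track of the mm9 assembly as the rows of repeat class SINE/Alu, which holds B1, and SINE/B2, which holds B2 and the related B3 subfamilies. The track lists 566274 B1 and 370840 B2 integrants among 3404964 LINE, SINE, LTR and DNA integrants, an integrant being a single genomic copy. Of these, 25516 B1 and 19460 B2 integrants had at least 16 uniquely mapped reads summed over the 16 RNA-seq libraries, together 44976 of the 123880 transposable element (TE) integrants that passed this minimum and were tested. Outside every annotated gene span lay 3435 of the tested B1 and 4859 of the tested B2 integrants, whereas 22081 and 14601 lay inside a gene. The cells were J1 mESCs of the 129S4/SvJae strain kept in the naive state with 2i and LIF. They were transduced with a lentiviral vector carrying a control hairpin (shEmpty) or a hairpin against Kap1 (shKap1), selected with puromycin and collected at day 5. Wild type cells (WT, 3 libraries for each hairpin) were compared with cells lacking Dnmt1, Dnmt3a and Dnmt3b (DNMT TKO, 3 libraries for each hairpin) and with cells lacking Tet1, Tet2 and Tet3 (TET TKO, 2 libraries for each hairpin). Each genotype was represented by 1 line, so that genotype and line cannot be told apart, and the study's methods state that the WT and DNMT TKO replicates came from independent experiments.

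B1 elements descend from the 7SL RNA of the signal recognition particle, and B2 elements from a transfer RNA. Both are copied by RNA polymerase III from an internal promoter made of an A box and a B box, both lack genes of their own, and both were spread by the LINE-1 machinery. B2 elements also carry polyadenylation signals near their 3′ end, and many SINEs sit in introns and untranslated regions, where RNA polymerase II transcribes them as part of a host gene. KAP1 (encoded by Trim28) is brought to DNA by KRAB zinc finger proteins and recruits SETDB1, which deposits H3K9me3. DNMT enzymes methylate cytosine and TET enzymes oxidise 5-methylcytosine to 5-hydroxymethylcytosine (5hmC). In the counts used here, a read belonged to an integrant if it overlapped at least 1 base on the integrant's own strand, so that a transcript started inside the SINE and one that ran through it cannot be told apart.

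Members around which the results turn are shown first, read from the mm9 reference, which is of the C57BL/6 strain, on the strand of the element and 5′ to 3′. Capitals mark every match to the letters TGGCNNA, with which the A box starts, to GTTCNANNC, the core of the B box, and to the polyadenylation signal AATAAA. In the first and second sequence a further TGGCTCA lies 3′ of the B box and is a match of letters only. The first sequence rose in every genotype from no read in shEmpty cells, the second had the largest rise in TET TKO cells of the called B2 elements outside genes with at least 100 reads, and the third rose in DNMT TKO cells but had no read in WT shKap1 cells. The fourth was chosen like the second for B1, the fifth is a B1 element in an intron of Mnd1, and the sixth is a B3 copy with the highest level per length of the B2 class outside genes.
B2_Mm1a chr6:85830513-85830705: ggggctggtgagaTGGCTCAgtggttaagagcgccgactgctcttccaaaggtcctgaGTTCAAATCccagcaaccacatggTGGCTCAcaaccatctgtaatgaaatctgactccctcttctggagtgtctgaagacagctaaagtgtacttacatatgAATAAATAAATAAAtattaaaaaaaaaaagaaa
B2_Mm1a chr13:35159568-35159725: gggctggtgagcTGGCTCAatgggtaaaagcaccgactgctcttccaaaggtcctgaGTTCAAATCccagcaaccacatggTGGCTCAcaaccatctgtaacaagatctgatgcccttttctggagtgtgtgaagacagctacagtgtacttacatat
B2_Mm2 chr9:98679566-98679755: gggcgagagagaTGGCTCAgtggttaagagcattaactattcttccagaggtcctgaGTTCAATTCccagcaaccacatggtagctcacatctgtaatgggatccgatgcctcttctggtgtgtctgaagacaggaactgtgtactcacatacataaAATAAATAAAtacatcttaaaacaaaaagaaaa
B1_Mus1 chr12:80213073-80213177: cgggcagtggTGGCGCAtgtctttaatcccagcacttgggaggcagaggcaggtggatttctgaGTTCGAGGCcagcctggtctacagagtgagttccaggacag
B1_Mus2 chr3:83946096-83946208: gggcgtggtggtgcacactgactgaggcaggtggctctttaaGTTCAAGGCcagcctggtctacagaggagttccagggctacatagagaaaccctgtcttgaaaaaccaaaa
B3 chr7:82915390-82915595: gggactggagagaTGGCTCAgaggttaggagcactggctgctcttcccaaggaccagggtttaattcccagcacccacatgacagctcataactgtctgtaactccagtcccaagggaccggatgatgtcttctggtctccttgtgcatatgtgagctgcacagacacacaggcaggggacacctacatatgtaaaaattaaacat
The B2 elements carry the A box start and the B box, followed by AATAAA in all of them but the chr13 copy, and the B3 copy carries no B box in these letters. Among all 366210 B2 elements scanned on both strands, 32.9% held the B box on their own strand, against 4.73% of windows of the same length placed 1 kb downstream and 1.12% on the opposite strand.

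Libraries held 18108431 to 29373696 reads in genes and 898152 to 1803819 reads in tested TE classes, with 194799 to 305092 reads in B1 and 108553 to 174573 in B2, and levels are given as CPM (reads of an integrant, sum or gene relative to a library's gene reads). Trim28 stood at 1630 to 2090 CPM in shEmpty libraries and fell to 149 to 190 in WT, 163 to 168 in TET TKO and 327 to 506 in DNMT TKO cells, so that the depletion was smaller in DNMT TKO cells (difference of the log2 changes 1.28, edgeR adjusted p = 8e-04). The deletions left RNA of the targeted genes, with Dnmt1 at 156 to 157 CPM in DNMT TKO against 478 to 513 in WT shEmpty, and Tet1 at 219 to 247 in TET TKO against 605 to 749. Tet3 RNA was not lower, at 13.3 to 14.2 CPM in TET TKO against 10.7 to 15.9 in WT shEmpty. All 7 stem cell markers found were read in every group, although their summed level fell from 3760 to 3960 CPM to 2420 to 2540 on knockdown in WT. Their sum also fell from 4020 to 4200 CPM to 3130 to 3170 in TET TKO and from 3910 to 4000 CPM to 2690 to 2990 in DNMT TKO cells. The TET TKO shEmpty libraries were the least alike of any replicate pair (chi-square per degree of freedom 45.6, against 1.68 to 15.3), and replicate 1 of WT and of DNMT TKO stood apart from replicates 2 and 3 (11.1 to 15.3 against 1.81 to 5.97).

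B1 and B2 took up 27.2% of all reads in TEs, but those outside genes took only 4.09%. The share of SINEs that were read differed by place and strand. In introns, 13.7% of the B1 copies on the gene's strand passed the minimum (17109 of 125036), against 0.475% of those on the opposite strand (735 of 154897). In exons the shares were 58.3% and 1.93%, and outside genes 1.29% of B1 copies passed (3435 of 266088). Of the B2 copies, 14.3% passed on the gene's strand in introns, 1.89% on the opposite strand of introns (1883 of 99455) and 2.6% outside genes (4859 of 187138). Both of the latter shares were above those of B1, without a test. Over all scanned copies, B2 was longer than B1 (mean 160 against 118 bp) and held AATAAA more often (43.7% against 5.28%). The libraries were made from poly(A) RNA. How far length and this selection bear on the shares was not tested. Outside genes, 15.3% of the copies that RepeatMasker names B2_Mm1a (1374 of 8957) and 7.5% of B2_Mm1t copies (861 of 11481) were read, followed by 2.65% of B2_Mm2 copies. In contrast, 1.25% of B3, 1.07% of B3A and 1.14% of B1_Mm copies were read there. Reads outside genes made up 42.2% of all B2_Mm1a reads and 37.4% of all B2_Mm1t reads, against 14.3% for B3 and 12.5% for B1_Mus2. The B box was held by 94.5% of the tested B2_Mm1a copies outside genes and 91.9% of the B2_Mm1t copies, compared with 78.1% of B2_Mm2, 18.5% of B3 and 7.71% of B3A copies. Of the tested B1_Mm copies outside genes, 56.1% held it. Over all scanned copies, read or not, the shares had the same order: 83.6% for B2_Mm1a, 78.3% for B2_Mm1t, 62.3% for B2_Mm2, 18.2% for B3 and 6.36% for B3A.

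The first comparison asked whether loss of KAP1 changed the total RNA of each class. Summed over every copy, B1 did not pass the test in any genotype (log2 change -0.03 in each, SE 0.04 to 0.05), with means of 10830 ± 90.3 CPM (SD, n = 3) in WT shEmpty and 10640 ± 264 in WT shKap1. B2 likewise moved by -0.05 ± 0.05 in WT (log2 ± SE, adjusted p = 0.44) and by 0.03 ± 0.05 in DNMT TKO (adjusted p = 0.68). In TET TKO cells, B2 stood at 5585 and 6085 CPM in shEmpty and at 6818 and 6552 CPM in shKap1, a rise of 0.20 ± 0.06 (adjusted p = 0.017) that did not pass when only the TET TKO libraries were fitted (adjusted p = 0.14) and had the opposite sign, -0.03, when libraries were scaled by trimmed mean of M values (TMM) on TE counts in place of gene counts. That rise did not pass without TET TKO shEmpty replicate 1 (0.14, adjusted p = 0.099) or TET TKO shKap1 replicate 1 (0.17, adjusted p = 0.14). Its difference from the WT change was 0.25 ± 0.07 (adjusted p = 0.035, and 0.069 with the replicate number as a block), and it did not pass in 9 of the fits that left out 1 library either. Scaling on TE counts shifted log2 knockdown changes by -0.08 in WT, -0.19 in DNMT TKO and -0.23 in TET TKO cells, and the values below are on the gene scale.

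Outside genes B1 rose in every genotype, and B2 rose in DNMT TKO and TET TKO cells. B1 stood at 1057, 1015 and 1030 CPM in WT shEmpty and at 1212, 1209 and 1236 CPM in WT shKap1, and the groups did not overlap. The rise was 0.24 ± 0.04 on the log2 scale (adjusted p = 0.00031), or 1.18-fold. It was 0.27 ± 0.04 in DNMT TKO (adjusted p = 5.4e-05, but 0.08 and not past the test when scaled on TE counts) and 0.42 ± 0.05 in TET TKO cells (adjusted p = 3.7e-06), where the libraries read 1071 and 1081 CPM in shEmpty and 1471 and 1418 CPM in shKap1. B2 outside genes gave 1214, 1234 and 1265 CPM in WT shEmpty and 1171, 1338 and 1203 in WT shKap1, overlapping ranges with a log2 change of 0 ± 0.06 (adjusted p = 0.99). In DNMT TKO cells B2 read 1218, 1157 and 1061 CPM in shEmpty and 1409, 1336 and 1348 CPM in shKap1. This was a rise of 0.25 ± 0.06 (adjusted p = 0.005), which became 0.06 and did not pass when scaled on TE counts. In TET TKO cells the same sum went from 1228 and 1102 CPM to 1925 and 1794 CPM. The rise was 0.67 ± 0.08 on the log2 scale (adjusted p = 3.7e-06), or 1.6-fold, and it remained at 0.44 (adjusted p = 5.2e-05) when scaled on TE counts. The B2 change outside genes was larger in TET TKO than in WT cells by 0.68 ± 0.10 (adjusted p = 0.00031), while the corresponding difference for B1 was 0.19 ± 0.06 (adjusted p = 0.067, and 0.036 in limma-voom). Neither class differed between DNMT TKO and WT cells in its knockdown change outside genes (B1 0.04 ± 0.06, adjusted p = 0.81, and B2 0.25 ± 0.09, adjusted p = 0.15, although the latter passed when only WT and DNMT TKO libraries were fitted and without either TET TKO shEmpty library, adjusted p = 0.028). In bulk RNA, a change in the share of cells that express an element and a change in the RNA per cell cannot be told apart.

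**Figure D1:**
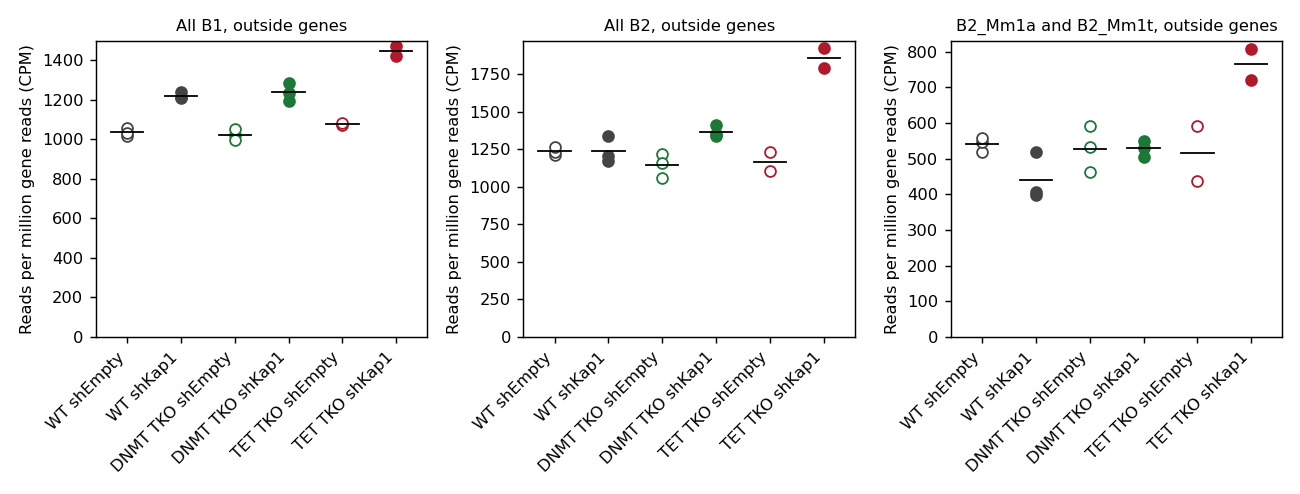
Summed RNA (CPM, vertical axis) of all B1, of all B2 and of B2_Mm1a with B2_Mm1t outside genes, in each library of the 6 groups on the horizontal axis. Points are libraries and lines are group means. B1 rose in every genotype, whereas B2 rose from 1228 and 1102 to 1925 and 1794 CPM in TET TKO cells and overlapped in WT cells; the rises in DNMT TKO cells do not pass when scaled on TE counts.

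Genes of the 2-cell state, the transient mESC condition that resembles the totipotent embryo and expresses MERVL, rose in every genotype and reached their highest level in TET TKO and their lowest in DNMT TKO cells. All 6 of these genes were read, and their summed level went from 17.6 to 33.3 CPM to 221 to 257 CPM in WT cells. It went from 14.7 to 16.7 CPM to 707 to 722 CPM in TET TKO cells, and in DNMT TKO cells from 8.89 to 29.8 CPM to 80.4 to 197 CPM. Their part in the B2 change was not tested.

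By subfamily, the B1 rise outside genes was broad. Of 14 B1 subfamilies, counted without the 131 copies named FAM, 10 passed upwards in WT, 12 in TET TKO and 12 in DNMT TKO cells, and none passed downwards. When scaled on TE counts these became 7, 6 and 4 upwards, with 1 downwards in WT and 1 in DNMT TKO cells. B1_Mm, which is among the young B1 subfamilies, read 60.8, 59.4 and 59.4 CPM in WT shEmpty and 81.6, 81.5 and 81.1 CPM in WT shKap1 (log2 change 0.44 ± 0.07, adjusted p = 7.4e-06). Its change was 0.39 ± 0.07 in DNMT TKO and 0.61 ± 0.08 in TET TKO cells. B1F changed most in TET TKO cells among them, from 65.6 and 68.2 CPM to 113 and 105 CPM (0.71 ± 0.08, adjusted p = 2.3e-07). PB1D9 was the exception, at -0.09 ± 0.07 in WT, -0.10 ± 0.07 in DNMT TKO and 0.06 ± 0.08 in TET TKO cells, none past the test. Among B1 subfamilies outside genes, B1_Mus2 came nearest to a knockdown change that differed between TET TKO and WT cells (difference 0.32 ± 0.10, edgeR adjusted p = 0.054), and 3 of the 14 passed in limma-voom and 3 in DESeq2.

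The B2 class was not uniform. B3 copies outside genes read 241, 229 and 239 CPM in WT shEmpty and 350, 355 and 350 CPM in WT shKap1. This was a rise of 0.57 ± 0.05 (adjusted p = 8e-09), and it was 0.56 ± 0.05 in DNMT TKO (adjusted p = 9e-09) and 0.88 ± 0.07 in TET TKO cells (adjusted p = 2.9e-10). The TET TKO change exceeded that of WT by 0.30 ± 0.09 (adjusted p = 0.032), a difference that did not pass with the replicate number as a block (0.053), when scaled on TE counts (0.16, adjusted p = 0.23) or in 10 of the 16 fits that left out 1 library. B3 is the older, B box-poor branch of the class. B2_Mm2 copies read 303, 316 and 327 CPM in WT shEmpty and 260, 307 and 286 in WT shKap1, a change of -0.15 ± 0.07 that did not pass (adjusted p = 0.060, but 0.018 without WT shKap1 replicate 2). In DNMT TKO cells B2_Mm2 went from 272, 271 and 242 CPM to 346, 319 and 329 CPM (0.34 ± 0.07, adjusted p = 0.00012, and 0.15 without passing when scaled on TE counts). Levels in TET TKO cells went from 286 and 263 CPM to 438 and 415 CPM (0.64 ± 0.08, adjusted p = 5.4e-07). The knockdown change of B2_Mm2 therefore differed from WT by 0.49 ± 0.09 in DNMT TKO (adjusted p = 0.001) and by 0.78 ± 0.10 in TET TKO cells (adjusted p = 3.5e-05), and both differences held under every alternative and without any single library. B3A changed by 0.15 ± 0.06 in WT (adjusted p = 0.054, and 0.021 in limma-voom), by 0.39 ± 0.06 in DNMT TKO and by 0.73 ± 0.08 in TET TKO cells, differing between TET TKO and WT by 0.59 ± 0.10 (adjusted p = 4e-04).

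B2_Mm1t went in opposite directions in WT and TET TKO cells. Outside genes it fell from 196, 210 and 206 CPM to 143, 182 and 142 CPM in WT cells, without overlap (-0.39 ± 0.11, adjusted p = 0.01). In DNMT TKO cells it went from 228, 204 and 183 CPM to 208, 191 and 206 CPM, a change of -0.03 ± 0.11 that took the opposite sign on gene totals without TMM. It rose in TET TKO cells from 217 and 166 CPM to 306 and 267 CPM (0.58 ± 0.14, adjusted p = 0.0026, but 0.40 with an adjusted p of 0.057 without TET TKO shEmpty replicate 2, and not past the test when scaled on TE counts). The difference between TET TKO and WT cells was 0.97 ± 0.18 (adjusted p = 0.0037), and it fell short of the threshold only when scaled on TE counts (0.81). B2_Mm1a read 323, 337 and 352 CPM in WT shEmpty and 257, 336 and 264 in WT shKap1 (-0.24 ± 0.13, adjusted p = 0.16, but 0.027 without WT shKap1 replicate 2). B2_Mm1a in TET TKO cells read 375 and 272 CPM in shEmpty and 503 and 454 CPM in shKap1 (0.57 ± 0.16, adjusted p = 0.012). That rise fell to 0.35 (adjusted p = 0.13) without TET TKO shEmpty replicate 2, to 0.49 (adjusted p = 0.075) without TET TKO shKap1 replicate 1, and to 0.32 without passing when scaled on TE counts. Its difference from WT, 0.81 ± 0.21, passed narrowly (adjusted p = 0.040) and was lost in 11 of the 16 fits that left out 1 library. In introns, where these copies lie on either strand of a host gene, the same pattern was present. B2_Mm1a in introns read 366, 386 and 386 CPM in WT shEmpty and 264, 339 and 281 CPM in WT shKap1 (-0.37 ± 0.10, adjusted p = 0.0081), against 376 and 313 CPM and 518 and 456 CPM in TET TKO cells (0.50 ± 0.13, adjusted p = 0.0039). The difference between these genotypes was 0.86 ± 0.16 in introns for B2_Mm1a (adjusted p = 0.0042) and 0.60 ± 0.10 for B2_Mm1t (adjusted p = 0.00052).

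**Figure D2:**
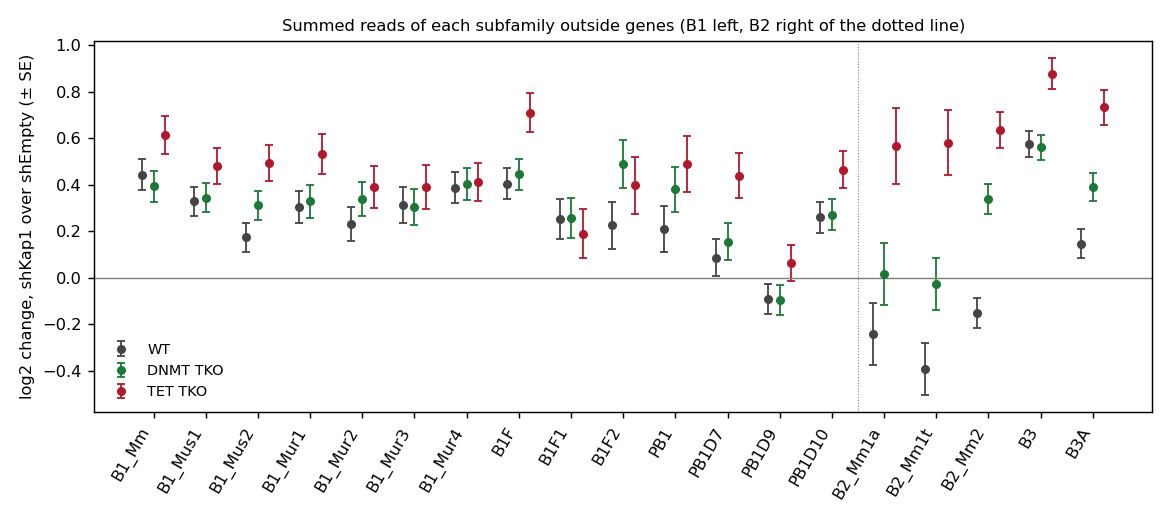
Log2 change of the summed reads of each B1 and B2 subfamily outside genes on Kap1 knockdown (points, with SE as bars) in WT, DNMT TKO and TET TKO cells. B3 rose in all genotypes (0.57, 0.56 and 0.88), while B2_Mm1t was at -0.39 in WT and 0.58 in TET TKO cells; the TET TKO value of B2_Mm1t does not pass when scaled on TE counts.

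Single integrants were then tested, calling a change at an adjusted p below 0.05 and at least 2-fold. On knockdown in WT, 382 of 3435 B1 integrants outside genes were upregulated (11.1%) and 87 downregulated (2.53%), against 12.1% up and 2.05% down among all 123880 TE integrants tested. Of the 4859 B2 integrants outside genes, 319 were upregulated (6.57%) and 173 downregulated (3.56%). Other TEs outside genes were upregulated in 27.3% of cases, with a median log2 change of 1.07, whereas the medians were 0.24 for B1 and -0.11 for B2. In TET TKO cells the background was 14.7% up and 0.971% down, and 423 B1 (12.3%) and 517 B2 integrants (10.6%) outside genes were upregulated, with 51 and 32 downregulated. In DNMT TKO cells, with a background of 15% up and 0.944% down, 317 B1 (9.23%) and 270 B2 integrants (5.56%) outside genes were upregulated, with 41 and 52 downregulated. SINEs outside genes thus contributed fewer upregulated integrants than other TEs in each genotype (33.8% of the latter in TET TKO and 36.6% in DNMT TKO cells). Without TET TKO shEmpty replicate 1, the number of SINEs called outside genes in TET TKO cells, both directions together, went from 1023 to 680, and without TET TKO shEmpty replicate 2 the upregulated ones went from 940 to 616. The 83 downregulated ones became 44 to 49 without TET TKO shEmpty replicate 1 or either TET TKO shKap1 library, and the 260 in WT became 159 without WT shKap1 replicate 3.

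**Figure D3:**
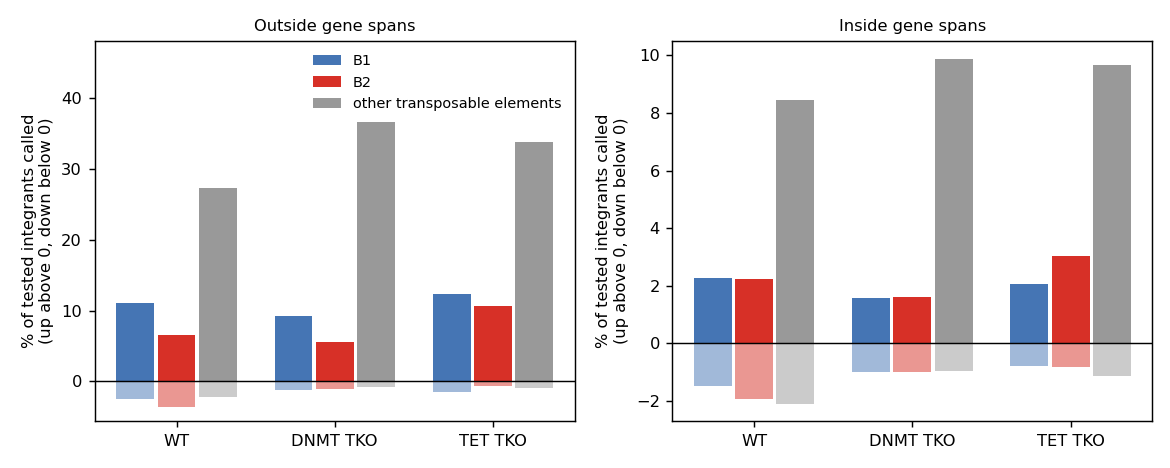
Percentage of tested integrants called upregulated (bars above 0) and downregulated (bars below 0) on Kap1 knockdown in each genotype, for B1, B2 and other TEs, outside genes (left) and inside genes (right, on another scale). Outside genes the upregulated shares were 5.56% to 12.3% for B1 and B2 and 27.3% to 36.6% for other TEs.

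The calls of the B2 subfamilies outside genes were counted separately, with no test between them. In WT cells, B2_Mm1a had 48 integrants up and 72 down of 1374 (3.49% and 5.24%), and B2_Mm1t had 24 up and 36 down of 861 (2.79% and 4.18%). B3 had 113 up and 14 down of 919 (12.3% and 1.52%), B2_Mm2 83 and 35 of 1182 (7.02% and 2.96%), and B3A 51 and 16 of 523 (9.75% and 3.06%). Among all tested TEs, 12.1% were up and 2.05% down. In TET TKO cells the same subfamilies gave 92 up and 14 down for B2_Mm1a (6.70% and 1.02%), 58 and 2 for B2_Mm1t (6.74% and 0.232%), 151 and 5 for B3 (16.4% and 0.544%), 135 and 6 for B2_Mm2 (11.4% and 0.508%), and 81 and 5 for B3A (15.5% and 0.956%), against 14.7% and 0.971% of all tested TEs. The levels of the upregulated copies in control cells are a description, since the call and the read minimum both favour copies that are low there. In WT shEmpty, 160 of the 382 upregulated B1 integrants outside genes had no read (41.9%) and the median was 0.0119 CPM, against 0.281 CPM in shKap1. Of the 319 B2 integrants, 127 had no read in WT shEmpty (39.8%), and the highest mean in shKap1 was 28.1 CPM.

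Individual copies showed how far these rises went. B2_Mm1a at chr6:85830513-85830705, which lies 11360 bp from Cml2 outside genes, had no read in any shEmpty library. It read 0.524, 1.26 and 0.853 CPM in WT shKap1, 0.576, 0.423 and 0.593 in DNMT TKO shKap1, and 1.30 and 0.873 in TET TKO shKap1. Against a floor of 3 reads over the control group, these were at least 22.4-fold, 13.3-fold and 20.1-fold higher (adjusted p = 6.9e-15, 3.2e-10 and 1.8e-12). PB1D10 at chr5:144193586-144193648, 10634 bp from Kdelr2, read 1.31, 1.91 and 1.60 CPM in WT shKap1 against no read in WT shEmpty, or at least 40.3-fold higher (adjusted p = 3.3e-22). This monomeric B1 had no read in any DNMT TKO library. The B2_Mm1a copy at chr13:35159568-35159725, 40604 bp from Eci2, read 3.33 and 2.77 CPM in TET TKO shKap1 and none in TET TKO shEmpty, at least 56.2-fold higher (adjusted p = 2.3e-26), and 0.839, 0.736 and 0.906 in WT shKap1 against 0.056, 0.036 and 0.106 in WT shEmpty. B1_Mus1 at chr12:80213073-80213177, 18586 bp from Arg2, behaved alike, with 3.47 and 3.13 CPM in TET TKO shKap1 against none (at least 60.7-fold higher, adjusted p = 8.5e-28) and 1.05, 1.17 and 1.07 CPM in WT shKap1.

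Other copies were picked by the comparisons that involve DNMT TKO cells. B2_Mm2 at chr9:98679566-98679755, 63250 bp from Prr23a, read 8.16, 7.10 and 5.71 CPM in DNMT TKO shKap1, where shEmpty replicate 3 alone had reads (0.077 CPM, adjusted p = 6.3e-65). With 2 shEmpty reads in all, the fitted log2 change is uncertain: it was 7.76 ± 0.45, and 10.345 without that library, a move that the SE does not cover. It had no read in the 3 WT shKap1 libraries and 0.463 and 0.616 CPM in TET TKO shKap1. The difference of its knockdown change between DNMT TKO and WT cells did not pass (adjusted p = 0.065), with reads in a single WT library (0.056 CPM). A PB1D10 copy just upstream on the same strand, chr9:98679458-98679545, read 7.20, 5.83 and 4.60 CPM in the DNMT TKO shKap1 libraries and none in DNMT TKO shEmpty (at least 143-fold higher, adjusted p = 1.1e-60). A read that overlapped both copies was counted in each, so their values are not independent. B1F at chr14:77078195-77078332, 121529 bp from Serp2, went from 0.333, 0.213 and 0.248 CPM to 0.052, 0.173 and 0.053 in WT cells and from 0.051, 0 and 0 to 1.25, 1.46 and 1.41 in DNMT TKO cells. The difference of these changes was 7.54 ± 1.01 on the log2 scale (adjusted p = 9.4e-11), and 9.38 without DNMT TKO shEmpty replicate 1, the only library of its group with a read.

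Among the downregulated members, a group of 3 SINEs on 1 strand near Slc4a7 fell together in WT and TET TKO cells and had no read in any DNMT TKO library. B2_Mm1a at chr14:15500265-15500460 read 0.611, 0.676 and 0.814 CPM in WT shEmpty and 0, 0.043 and 0 in WT shKap1 (log2 change -5.04 ± 0.77, adjusted p = 1.8e-09, and -7.06 without WT shKap1 replicate 2, which held the single read of its group). In TET TKO cells it read 1.48 and 1.31 CPM in shEmpty against 0.046 and 0. B1_Mur2 at chr14:15503581-15503682 was unread in WT shKap1 and at least 14.7-fold lower than in WT shEmpty (1.22, 0.462 and 0.672 CPM, adjusted p = 3.3e-11). B3A at chr14:15507997-15508161 fell in WT cells (-3.69 ± 0.74, adjusted p = 1.2e-05, and -3.09 without WT shKap1 replicate 2) and was at least 18.9-fold lower in TET TKO shKap1 (adjusted p = 3.2e-12).

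Upregulated SINEs tended to lie beside upregulated LTR elements, the promoters and internal parts of endogenous retroviruses. On knockdown in WT, 250 of the 382 upregulated B1 integrants outside genes had a called-up LTR integrant within 5 kb on the same strand (65.4%, exact 95% interval 60.4 to 70.2). The share was 8.73% for B1 integrants that were not called (259 of 2966) and 0 of 87 for downregulated ones (exact 95% upper bound 4.15%). For B2 it was 62.7% (200 of 319, 57.1 to 68), against 6.14% of those not called and 1 of 173 downregulated. The LTR lay upstream for 52.6% of the upregulated B1 and 52.4% of the upregulated B2 integrants, against 5.09% and 3.71% of those not called. One on the opposite strand was present for 8.38% and 9.09% of the upregulated integrants, against 1.65% and 2.56% of those not called. In TET TKO cells the same-strand shares of upregulated integrants were 70.2% for B1 (297 of 423) and 52% for B2 (269 of 517), and in DNMT TKO cells 65.9% (209 of 317) and 60.7% (164 of 270). Of the downregulated ones in TET TKO cells, 3 of 51 B1 (5.88%) and 3 of 32 B2 integrants (9.38%) had such an LTR, against 7.02% and 4.29% of those not called. In DNMT TKO cells it was 0 of 41 and 0 of 52. These intervals cover counting error only, neighbouring copies are not independent, and SINE and LTR calls came from the same libraries, so no test was made.

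**Figure D4:**
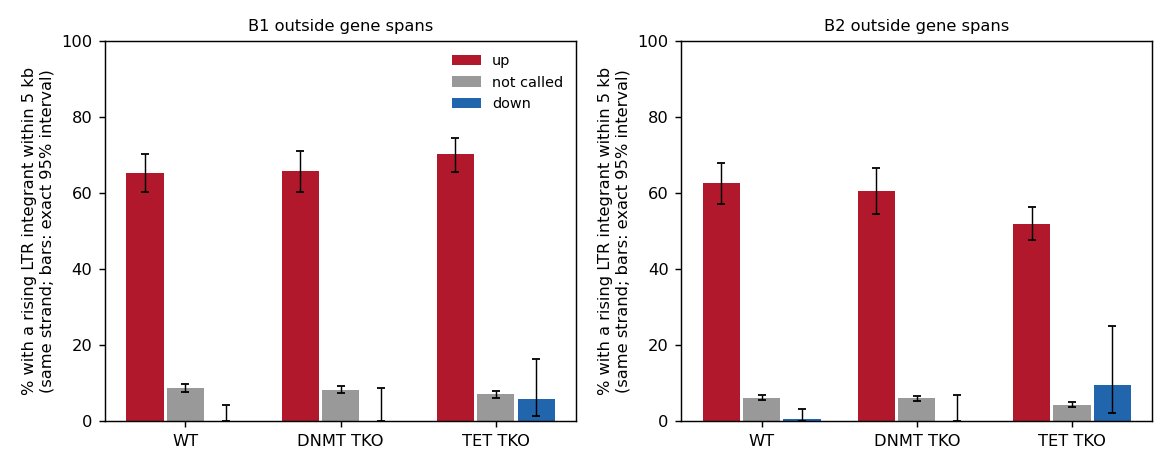
Percentage of B1 and B2 integrants outside genes with an upregulated LTR integrant within 5 kb on the same strand, for integrants called up, not called and called down in each genotype, with exact 95% binomial intervals. Upregulated SINEs reached 52% to 70.2%, those not called 4.29% to 8.73%.

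The full-length MERVL provirus lay beside 65 of the 701 upregulated SINEs outside genes in WT (9.27%), 105 of 940 in TET TKO (11.2%) and 31 of 587 in DNMT TKO cells (5.28%). In WT the solitary MERVL promoter MT2_Mm lay beside 32, the related MT2B beside 26 and ORR1A3-int beside 25. These entries were not counted beside SINEs that were not called, nor set against the number of called-up copies of each, so their order says nothing about a preference of SINEs for them. The upregulated SINEs of WT fell into 467 stretches, 348 of the 701 (49.6%) shared a stretch with another, and 1 stretch held 12. The same was not computed for SINEs that were not called. They lay farther from genes than the rest, at a median of 8.92 kb for B1 and 9.99 kb for B2 in WT, against 2.46 and 4.87 kb for integrants that were not called. Within 10 kb downstream of a gene on the same strand lay 19.6% of the upregulated and 52.9% of the uncalled B1 integrants.

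The upregulated B2 copies outside genes were poorer in promoter letters than the rest. In WT, 43.6% of the 314 scanned held the B box, against 67.6% of those not called and 79.2% of the 173 downregulated, and in TET TKO cells 53.4% of the upregulated held it. AATAAA was found in 53.8%, 68.4% and 80.3% of the same WT groups. Windows of equal length 1 kb downstream held the B box in 6.52% to 8.09% and AATAAA in 12.3% to 13.9% of cases, and the subfamily makeup of these groups differs as given above.

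Inside genes the sums over all B1 or all B2 integrants of introns did not pass the test, whereas some subfamily sums there did. In introns the knockdown change was -0.02 ± 0.07, -0.07 ± 0.07 and -0.11 ± 0.08 for B1 and -0.07 ± 0.07, -0.02 ± 0.07 and 0.09 ± 0.08 for B2 in WT, DNMT TKO and TET TKO cells, with adjusted p-values from 0.43 to 0.91. Of the integrants inside genes, 501 B1 (2.27%) and 327 B2 (2.24%) were upregulated in WT and 325 and 280 downregulated (1.47% and 1.92%), against 8.45% up and 2.09% down among other TEs inside genes. Knockdown in TET TKO cells gave 453 B1 (2.05%) and 442 B2 integrants (3.03%) up and 175 and 119 down (0.793% and 0.815%). In DNMT TKO cells 352 and 233 were up (1.59% and 1.6%) and 217 and 145 down (0.983% and 0.993%). Other TEs inside genes were up in 9.68% and down in 1.14% of cases in TET TKO cells, and up in 9.89% and down in 0.959% in DNMT TKO cells. When scaled on TE counts, the upregulated share of the SINE calls inside genes went from 75.3% to 56.2% in TET TKO and from 61.8% to 41.2% in DNMT TKO cells. Of the calls made under that scaling, most were thus upward in TET TKO cells and most downward in DNMT TKO cells. Whether the same integrants were called under both scalings was not compared. That scaling shifts all log2 knockdown changes, by -0.23 in TET TKO and -0.19 in DNMT TKO cells, so a lower share is built into it. Without TET TKO shEmpty replicate 2, 725 in place of 1189 SINEs inside genes were called in TET TKO cells, and the upregulated ones went from 895 to 569 without replicate 1. The 294 downregulated ones became 141 without TET TKO shEmpty replicate 2, and 158 and 129 without TET TKO shKap1 replicate 1 or 2.

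Integrants on the gene's strand followed their host. Over integrants within exactly 1 gene and with at least 100 reads, the log2 knockdown changes of integrant and host in WT had a Pearson correlation of 0.83 for B1 in exons (1681 integrants) and 0.75 for B1 in introns (2905). For B2 they were 0.89 in exons (716) and 0.62 in introns (1732). On the opposite strand in introns they were 0.16 for B1 (90) and -0.03 for B2 (179). Spearman correlations on the gene's strand were 0.76 in exons and 0.56 in introns for B1, and 0.75 and 0.46 for B2. These correlations are across integrants that share libraries, and on the gene's strand the exonic ones share reads with the host count. Of the B1 integrants upregulated on the gene's strand in introns in WT, 159 of 272 had an upregulated host (58.5%), where 3.02% of all such integrants had one. On the opposite strand it was 15 of 71 (21.1%), where 9.82% of all had one. For B2 the counts were 91 of 165 (55.2%, against 3.86% of all) and 13 of 70 (18.6%, against 7.49% of all).

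**Figure D5:**
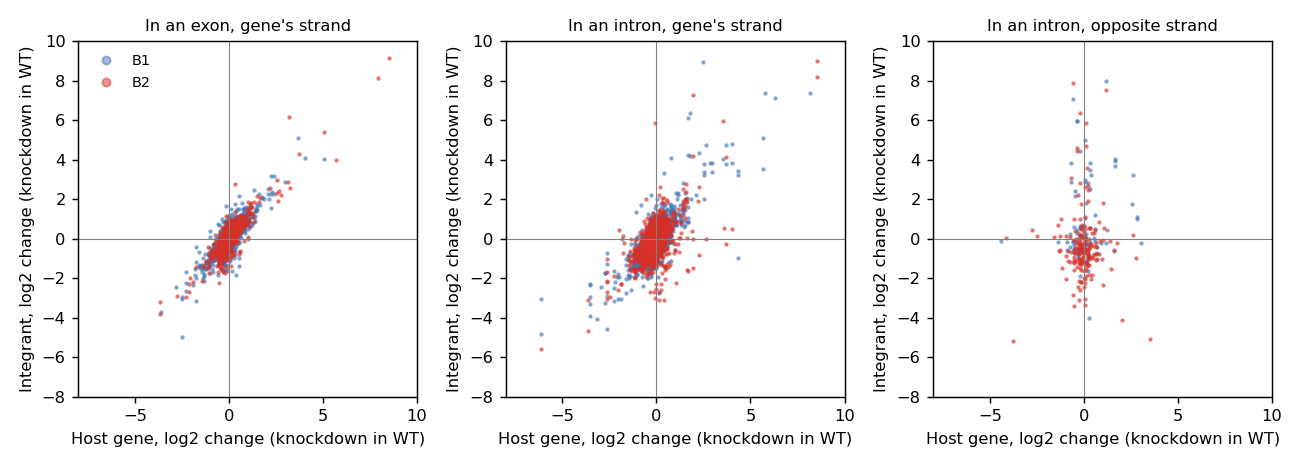
Log2 change of each integrant on Kap1 knockdown in WT (vertical axis) against that of its host gene (horizontal axis), for B1 and B2 integrants with at least 100 reads in exons on the gene's strand, in introns on the gene's strand and in introns on the opposite strand. On the gene's strand the changes had Pearson correlations of 0.62 to 0.89 and Spearman correlations of 0.46 to 0.76. On the opposite strand in introns the Pearson correlations were -0.03 and 0.16.

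The B1_Mus2 copy in an intron of Mnd1, a meiotic recombination gene, had no read in WT shEmpty and 1.99, 2.64 and 3.41 CPM in WT shKap1, at least 66.3-fold higher (adjusted p = 1.2e-33). It read 0.787 and 0.924 CPM in TET TKO shKap1 and 0, 0 and 0.037 in DNMT TKO shKap1. Mnd1 itself rose by 2.46 in WT and 2.14 in TET TKO cells on the log2 scale, and its change in DNMT TKO cells was 0.37 (adjusted p = 0.062). In Gm20429, a gene that went from 0.0237 to 11.8 CPM on knockdown in WT, B3 at chr17:37385623-37385786 in an exon was at least 76.5-fold higher (adjusted p = 1.9e-40) and B2_Mm1t at chr17:37386004-37386179 in an intron at least 67.5-fold higher (adjusted p = 3.8e-37). Conversely, B3A at chr2:135474982-135475085 in an intron of Gm14074 fell from 3.22, 2.28 and 2.41 CPM to 0.157, 0.043 and 0.107 in WT cells (-4.65 ± 0.41, adjusted p = 6.7e-28). The fall was smaller in DNMT TKO cells (-1.13 ± 0.28, difference 3.52, adjusted p = 3.5e-08) and in TET TKO cells (-2.32 ± 0.38, difference 2.33, adjusted p = 0.028). The highest levels per length were in exons, such as B1F1 in Tdgf1, a Nodal coreceptor, at 78.3, 69.7 and 69.5 CPM in WT shEmpty and 57.6, 51.8 and 52.6 in WT shKap1 (-0.42 ± 0.12, adjusted p = 0.0043), beside a host change of -0.43.

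On the opposite strand of introns, 157 of 1749 B2 integrants were called up in TET TKO cells, against 70 of them in WT cells (71 in DNMT TKO), and 18 of the 157 had an upregulated host (11.5%, against 6.06% of the 1749). The corresponding B1 counts were 110, 71 and 64 of 672. Other TEs in introns were called up in 8.47% of cases in WT, 10.1% in TET TKO and 10.4% in DNMT TKO cells. Whether the SINE counts differ between genotypes was not tested.

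Few single SINEs differed between genotypes in their knockdown change. Against WT, DNMT TKO cells had a larger log2 change for 37 B1 and 40 B2 integrants and a smaller one for 48 and 33, where 1.33% of all TEs were called up and 0.473% down. TET TKO cells had a larger change for 36 B1 and 72 B2 integrants and a smaller one for 19 and 13, with a background of 0.831% and 0.243%. Outside genes these were 36 B2 integrants up and 6 down (0.741% and 0.123% of 4859), and without TET TKO shEmpty replicate 2 the SINEs called outside genes went from 62 to 33 (41 without WT shEmpty replicate 2). Inside genes they went from 78 to between 34 and 48 without WT shEmpty replicate 3 or any 1 of the TET TKO libraries. B3 at chr7:82915390-82915595, 13135 bp from the nearest gene, is well read and shows a smaller response in both mutants. It stood at 8.05, 5.05 and 5.63 CPM in WT shEmpty and 31.0, 26.1 and 27.3 in WT shKap1, a rise of 2.18 ± 0.16 (adjusted p = 5.1e-39). In DNMT TKO cells it went from 11.6, 12.0 and 11.6 CPM to 21.7, 18.0 and 17.9 (0.71 ± 0.16), and in TET TKO cells from 11.2 and 12.2 CPM to 21.6 and 23.3 (0.94 ± 0.19). The differences from WT were -1.47 ± 0.22 (adjusted p = 2e-08) and -1.24 ± 0.25 (adjusted p = 0.00018), and the mutants started from higher control levels.

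Without knockdown, the summed RNA of both classes was slightly lower in DNMT TKO than in WT cells, B1 by -0.13 ± 0.04 (adjusted p = 0.022) and B2 by -0.12 ± 0.05 (adjusted p = 0.043, and 0.065 with the replicate number as a block), but both sums were higher, by 0.11, when scaled on TE counts. Each of these calls was lost when single libraries were left out (adjusted p up to 0.082 for B1, without DNMT TKO shEmpty replicate 2, and up to 0.16 for B2, without DNMT TKO shEmpty replicate 3). Outside genes neither sum passed (-0.02 ± 0.04 and -0.11 ± 0.06). Whole chromosomes were shifted in the DNMT TKO line, with median log2 differences of 0.29 over genes and 0.15 over SINEs with at least 100 reads on chromosome 11, -0.29 and -0.50 on chromosome 6, and -0.18 and -0.36 on chromosome 8. Their part in the sums was not tested. Among single integrants, 423 B1 and 502 B2 were higher and 778 and 776 lower in DNMT TKO than in WT shEmpty, where 3.48% of all TEs were higher and 6.45% lower. Inside genes the higher share of these calls went from 33.2% to 52.6% when scaled on TE counts, and outside genes from 46.7% to 59.2%, and without DNMT TKO shEmpty replicate 2 the calls inside genes went from 1727 to 1147. The higher calls outside genes went from 351 to 221 and 227 without WT shEmpty replicate 2 or 3. B1_Mus1 at chr12:18541698-18541842, 700 bp from 5730507C01Rik, read 3.39, 3.24 and 3.18 CPM in WT and none in DNMT TKO shEmpty, at least 80.9-fold lower (adjusted p = 1.8e-53). B3 at chr3:20950415-20950574 did the opposite, with none in WT and 2.79, 2.04 and 2.39 CPM in DNMT TKO (at least 58.5-fold higher, adjusted p = 5.3e-38), and 1.83 and 1.35 CPM in TET TKO.

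Between TET TKO and WT shEmpty cells, 224 B1 and 235 B2 integrants were higher and 210 and 229 lower in TET TKO cells, with 1.74% of all TEs higher and 2.33% lower. The calls inside genes went from 574 to 271 without TET TKO shEmpty replicate 1 and to 286 without replicate 2, and outside genes from 324 to 165 and 190. B2_Mm1a at chr12:70268098-70268289, 1511 bp from Lrr1, had no read in WT and 3.95 and 2.82 CPM in TET TKO shEmpty, at least 84.3-fold higher (adjusted p = 2.1e-41). The sums of B1 and B2 did not pass, at 0 ± 0.05 and -0.07 ± 0.05. As each genotype is 1 line, copies present or absent in that line alone cannot be told apart from an effect of the deletion.

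Few SINEs lay in regions bound by KAP1. Of 26553 KAP1 regions, 2198 overlapped a B1 or B2 copy of the track (8.28%). Among tested integrants outside genes, 1.31% of B1 (45 of 3435) and 0.947% of B2 (46 of 4859) overlapped a KAP1 region by at least 1 base, against 21.5% of other TEs. Wholly inside such a region lay 0.961% of B1, 0.37% of B2 and 1.6% of other TEs. Over all copies outside genes, tested or not, the overlapping shares were 0.382%, 0.418% and 1.57%. Integrant length and a read minimum that includes shKap1 libraries both bear on the first comparison. The overlapping shares of tested integrants in the 14445 H3K9me3 regions listed as Kap1-dependent were 2.21% and 1.38%, against 19.1%. Wholly inside these lay 1.98% of B1, 1.15% of B2 and 4.43% of other TEs. Over all copies outside genes the overlapping shares were 0.714%, 0.607% and 1.42%. The upregulated share of the few SINEs in these H3K9me3 regions was above that elsewhere, without a test. On knockdown in WT, 20 of 76 B1 integrants there were upregulated (26.3%, exact 95% interval 16.9 to 37.7) against 10.8% elsewhere outside genes, and 20 of 67 B2 integrants (29.9%, 19.3 to 42.3) against 6.24%. In KAP1 regions the counts were 10 of 45 for B1 (22.2%, 11.2 to 37.1, against 11% elsewhere) and 14 of 46 for B2 (30.4%, 17.7 to 45.8, against 6.34%). In H3K27me3 regions 12 of 27 B1 integrants were upregulated (44.4%, 25.5 to 64.7, against 10.9% elsewhere). A higher B1 share was thus not particular to H3K9me3 or KAP1 regions. For B2 it was 4 of 59 in H3K27me3 regions (6.78%, against 6.56% elsewhere). In contrast, 5 of 306 B1 and 3 of 211 B2 integrants in H3K4me3 regions were upregulated (1.63% and 1.42%, against 12% and 6.8% elsewhere).

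At the KAP1 regions that overlap a SINE, 5hmC over input rose by a median of 0.56 on the log2 scale on knockdown in WT, against 0.63 at KAP1 regions with none. A rise on this scale was not confined to KAP1 regions. At regions that overlap a SINE it was 0.38 for H3K4me3, 0.25 for H3K27me3 and 0.42 for H3K9me3 listed as Kap1-independent. Each condition had 1 library whose label and file name went together, so these medians have no replicate check. The median at KAP1 regions that overlap a SINE was 0.19 when libraries were scaled to reads over H3K4me3 regions, and -0.69 in the other replicate if its labels are followed, which go against its file names.

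None of the 20 genes of the RNA polymerase III machinery tested was called at 2-fold on knockdown in any genotype. Among all 20321 genes, 2200 were called up and 1329 down at 2-fold in WT, 1635 and 907 in TET TKO, and 2043 and 491 in DNMT TKO cells. By adjusted p alone, 3 of the 20 rose and 7 fell in WT, 4 rose and 5 fell in TET TKO, and 3 rose and 5 fell in DNMT TKO cells. By that measure 4672 of all genes rose and 4605 fell in WT, 3108 and 3070 in TET TKO, and 3997 and 3175 in DNMT TKO cells. Gtf3a, which encodes transcription factor IIIA of the 5S RNA genes, went from 50.1 ± 1.42 CPM (SD, n = 3) to 28.4 ± 1.30 in WT (-0.82 ± 0.07, adjusted p = 3.4e-08). Maf1, the repressor of RNA polymerase III, went from 49.2 ± 0.79 to 35.3 ± 1.11 CPM (-0.48 ± 0.06, adjusted p = 5.5e-06), and Polr3g, a subunit prominent in stem cells, from 128 ± 5.97 to 153 ± 3.49 (0.26 ± 0.06, adjusted p = 0.00082). Of 5 genes for proteins that bind SINE-related RNA, none was called on knockdown at 2-fold, and 2 fell by adjusted p alone in WT, none in TET TKO and 2 in DNMT TKO cells. Srp9, a signal recognition particle protein that binds 7SL-like RNA, was lower in TET TKO than in WT control cells, at 13.5 ± 0.0647 CPM (SD, n = 2) against 41.1 ± 3.44 (-1.60 ± 0.10, adjusted p = 1.6e-09). Among 21 genes of SINE chromatin, the H3K9 methyltransferase gene Suv39h1 rose by 1.21 ± 0.11 and Dnmt3a by 1.15 ± 0.13 in WT, and Trim28 was the 1 called down. By adjusted p alone, 4 of the 21 rose and 10 fell in WT, 2 rose and 4 fell in TET TKO, and 2 rose and 12 fell in DNMT TKO cells, to be read against the counts over all genes above.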

How the data were processed

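Poly(A) RNA of 16 libraries was sequenced by the authors as stranded single reads, aligned to mm9 with HISAT2 and kept where uniquely mapped, so copies whose reads fit several places are under-counted. The deposited values used are whole read counts per integrant (bedtools multicov, by strand, over a merged RepeatMasker track) and per gene (featureCounts). Also used were peak and region lists, as positions only, and the deposited 5hmC and input read counts over regions.

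All 123880 integrants with at least 16 reads were fitted with edgeR 4.0.16 (quasi-likelihood, robust) in R 4.3.3, using gene counts for TMM library sizes, all 6 groups sharing 1 estimate of spread, and Benjamini-Hochberg adjustment per comparison. Calls needed an adjusted p below 0.05 and a 2-fold change. The SE of an edgeR log2 change is that change, without its sign, divided by the square root of the F statistic of its test. Where a group has few or no reads, this SE does not cover how far the fitted change depends on single libraries. Sums per class and subfamily were fitted likewise over all such sums of the track. Named integrants had at least 100 reads and were, per class and place, the 3 largest rises and 2 largest falls by log2 change in WT among calls with libraries that did not overlap, the largest rise and fall outside genes in each other comparison, and those of highest level per length. Values are printed for a part of these. Alternatives used limma 3.58.1, DESeq2 1.42.0, other scalings, read minimums, gene spans and left-out libraries. The fits were tested on simulated data, with changes set only in the knockdown in WT and only in rows with many reads. That test does not cover integrants with few reads or the comparisons of TET TKO cells. Members and gene lists were chosen with earlier results of these data known.

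Replicates are labelled as separate samples, so p-values measure the spread between these. A single library resolves 3 reads, or 0.104 to 0.167 CPM. Same-numbered WT shEmpty and shKap1 libraries deviated together over genes (correlations 0.118 to 0.274), as did WT and DNMT TKO shEmpty libraries (0.135 to 0.317), from the values alone, since the labels do not say what a number marks. For DNMT TKO shEmpty and shKap1 they were 0.078 to 0.33. Intervals of shares are exact (Clopper-Pearson, 95%) and cover counting error only.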

Additional observations from a re-analysis of the deposited data

Results flagged for a closer look

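The knockdown change of several SINE sums differed between genotypes by the test of the difference itself (edgeR, adjusted p below 0.05). TET TKO minus WT was 0.25 on the log2 scale for B2 in total, 0.68 for B2 outside genes, and in total 0.77 for B2_Mm1a, 0.68 for B2_Mm1t and 0.29 for B2_Mm2. Outside genes it was 0.81 for B2_Mm1a, 0.97 for B2_Mm1t, 0.78 for B2_Mm2, 0.30 for B3 and 0.59 for B3A, and in introns 0.86 for B2_Mm1a and 0.60 for B2_Mm1t. Of the totals, that of B2_Mm1a did not pass without TET TKO shEmpty replicate 2 or TET TKO shKap1 replicate 1 (adjusted p = 0.062 each), nor that of B2_Mm2 without TET TKO shEmpty replicate 1 (adjusted p = 0.062). DNMT TKO minus WT was 0.49 for B2_Mm2 outside genes and 0.30 for B1F1 in exons.

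Single integrants were picked out by the same test. DNMT TKO minus WT was 7.54 for B1F at chr14:77078195-77078332, 5.23 for B2_Mm2 at chr12:19373503-19373692 and 3.52 for B3A at chr2:135474982-135475085. It was -1.47 for B3 at chr7:82915390-82915595, -5.12 for B3 at chr5:144155970-144156174, -5.12 for B2_Mm1a at chr12:89572076-89572268, -5.84 for B1_Mur4 at chr12:89574408-89574538 and -7.48 for B1_Mus1 at chr12:19745372-19745515. TET TKO minus WT was 7.59 for a B2_Mm2 copy on chromosome 18, 5.65 for B2_Mm1a at chr13:35159568-35159725, 5.17 for B1_Mur4 at chr10:82814648-82814760 and 2.33 for B3A at chr2:135474982-135475085. It was -1.24 for B3 at chr7:82915390-82915595, -3.25 for B2_Mm1a at chr12:89572076-89572268, -5.42 for B1_Mur4 at chr12:89574408-89574538 and -5.48 for a B2_Mm2 copy on chromosome 5. The copy on chromosome 18 did not pass in 7 of the fits that left out 1 library (adjusted p up to 0.28), B1_Mur4 on chromosome 10 in 3 (0.15 to 0.23, each without a TET TKO library), and B2_Mm2 at chr12:19373503-19373692 without DNMT TKO shEmpty replicate 2 (0.061) or WT shEmpty replicate 3 (0.089). Where a group had no read, the fitted value depends on the prior count. The B2_Mm1a copy on chromosome 12 read 0.056, 0.036 and 0 CPM in WT shEmpty and 1.10, 0.736 and 0.906 in WT shKap1, but 0.914, 1.45 and 1.08 in DNMT TKO shEmpty and 1.01, 0.893 and 0.927 in DNMT TKO shKap1.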

How the results depend on the processing

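The cause of the changes below was not tested. Counts are of B1 and B2 integrants called, first inside and then outside genes, where the reported counts are 1433 and 961 for the knockdown in WT, 1189 and 1023 in TET TKO, 947 and 680 in DNMT TKO, 99 and 59 for the difference between DNMT TKO and WT, 78 and 62 for that between TET TKO and WT, 1727 and 752 for DNMT TKO against WT shEmpty, and 574 and 324 for TET TKO against WT shEmpty. In the same order, DESeq2 called 557 and 429, 385 and 407, 331 and 270, 39 and 35, 24 and 27, 659 and 303, and 180 and 108. With all integrants of at least 1 read the counts were 763 and 590, 718 inside in TET TKO, 515 and 435, 47 and 33, 30 and 34, 940 and 464, and 302 and 204. With at least 50 reads they were 577 outside in WT, 720 and 474 in TET TKO, 360 outside in DNMT TKO, 44 and 35 for the TET TKO difference, and 455 outside for DNMT TKO shEmpty, fewer integrants being tested. Gene spans extended by 10 kb, which leaves fewer integrants outside, gave 442, 488, 334, 26, 17, 286 and 110 outside and 123 inside for the TET TKO difference. limma-voom called 208 and 185 for the DNMT TKO and 154 and 141 for the TET TKO difference. Scaled on TE counts, the higher share of calls inside genes went from 42.4% to 26.9% for the DNMT TKO difference and from 75.6% to 55.7% for the TET TKO difference.

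Sums are log2 changes. Scaled on TE counts, B1 outside genes was 0.08 for the knockdown in DNMT TKO, -0.075 for the DNMT TKO difference, and 0.223 and 0.19 for DNMT TKO and TET TKO shEmpty against WT. All B1 was -0.219 in DNMT TKO, -0.251 in TET TKO, -0.142 for the TET TKO difference, and 0.106 and 0.131 for the shEmpty comparisons. B2 outside genes was 0.061 in DNMT TKO, and 0.125 and 0.05 for the shEmpty comparisons. All B2 was -0.136 in WT, -0.167 in DNMT TKO, -0.029 in TET TKO, -0.031 and 0.107 for the DNMT TKO and TET TKO differences, and 0.114 and 0.059 for the shEmpty comparisons, and B2_Mm1a outside genes was -0.172 in DNMT TKO. With DESeq2 size factors, B1 outside genes was 0.022 for DNMT TKO shEmpty and -0.002 for the DNMT TKO difference, all B1 was -0.095 for DNMT TKO shEmpty and -0.003 for the TET TKO difference, B2 outside genes was 0.022 in WT, and all B2 was -0.086 for DNMT TKO shEmpty. With gene totals and no TMM, all B1 was 0.051, 0.037 and 0.05 in WT, DNMT TKO and TET TKO, -0.001 for the TET TKO difference and -0.028 for TET TKO shEmpty. B2 outside genes was 0.077 and all B2 0.025 in WT, all B2 was -0.115 for DNMT TKO shEmpty, B2_Mm1t outside genes was 0.037 in DNMT TKO, and B2_Mm2 in total was 0.025 in WT. The TET TKO difference of B1 outside genes passed in limma-voom (0.186) and DESeq2 (0.187), and the DNMT TKO difference of all B1 was 0.001 in limma-voom. With only the compared groups fitted, the DNMT TKO difference of B2 outside genes passed (0.253) and the rise of all B2 in TET TKO did not (0.196). Sums over integrants with at least 16 reads gave 0.006 for B1 outside genes in DNMT TKO shEmpty, -0.019 for all B1 in TET TKO shEmpty and -0.008 for all B2 in DNMT TKO. The 5hmC change was 0.49 with a pseudocount of 5, 0.19 when scaled on H3K4me3 regions and -0.69 in replicate 2 by its labels. Of all tested integrants, 0.259% of B1, 0.308% of B2 and 1.02% of other TEs lay wholly within a KAP1 region.

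With the replicate number as a block, the TET TKO difference of all B2 (0.249) and the change of all B2 in DNMT TKO shEmpty (-0.124) did not pass, and the DNMT TKO difference of all B1 was 0. Besides that of B3 outside genes (0.303), the pairing changed no other call among the sums refitted and the named integrants. Whether the other single integrants kept their calls was not compared.

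Leaving out 1 library at a time, counts inside and outside genes ranged from 725 to 1235 and 680 to 1031 for the knockdown in TET TKO, from 34 to 90 and 33 to 69 for the TET TKO difference, from 1147 to 1768 inside for DNMT TKO shEmpty, and from 271 to 597 and 165 to 341 for TET TKO shEmpty. All B1 ranged from -0.076 to 0.028 for the knockdown in TET TKO, -0.023 to 0.018 for the DNMT TKO difference, -0.05 to 0.054 for the TET TKO difference, -0.151 to -0.115 for DNMT TKO shEmpty and -0.05 to 0.055 for TET TKO shEmpty. All B2 ranged from -0.005 to 0.05 in DNMT TKO, 0.136 to 0.259 in TET TKO, 0.188 to 0.312 for the TET TKO difference and -0.148 to -0.101 for DNMT TKO shEmpty. B1 outside genes ranged from -0.037 to 0.002 for DNMT TKO shEmpty and 0.16 to 0.213 for the TET TKO difference, and B2 outside genes from -0.06 to 0.038 in WT and 0.201 to 0.313 for the DNMT TKO difference. Among values that did not pass, B2_Mm1a outside genes ranged from -0.075 to 0.109 and B2_Mm1t from -0.101 to 0.056 in DNMT TKO, and the DNMT TKO difference of B3 outside genes from -0.03 to 0.009.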
